A study of Mus musculus with 18 samples.

Results

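The comparison set embryos lacking Dmrt5 directly against embryos lacking Dmrt3, without a wild-type reference, to ask how the 2 single losses differ. It used the 4 libraries titled Dmrt5 KO and the 5 titled Dmrt3 KO, 9 of the 18 libraries of the study, chosen by their titles. All 18 held cortical tissue, taken at E12.5 from mouse embryos of the C57BL/6 strain. The Dmrt5 KO group carried the genotype Dmrt5-/- and the Dmrt3 KO group Dmrt3-/-. The other 9 libraries, 4 wild-type (WT) and 5 Dmrt3-/-;Dmrt5-/- (double KO), gave reference levels only. The construction of the alleles is not given in the sources used here. Nothing in the labels says that each library was a separate embryo, so p-values measure the spread between these libraries, which may be technical.

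Dmrt3 and Dmrt5 are transcription factors with a DM domain, a DNA-binding zinc module first known from sex determination. Progenitors of the dorsal telencephalon express both, most strongly at its medial edge. That edge borders the cortical hem, a strip that secretes Wnt and Bmp signals and adjoins the choroid plexus. The dorsal telencephalon, or pallium, makes glutamatergic neurons, and the ventral subpallium makes GABAergic neurons. The gene labelled Dmrt5 has the symbol Dmrta2, used here for its transcript.

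The promoters below belong to genes lower in Dmrt5 KO, and they are shown because each holds ACANTGT. This pattern, identical on both strands, was searched as a loose form of the element that DM-domain proteins bind, with any base at its centre. The centre base is C and T in the matches of Dmrta2, G in Kcne2, C in Stac and A in Wdr63. Dmrta2 is one of the targeted genes, Kcne2 encodes a potassium channel subunit of choroid plexus epithelium, Stac an adaptor protein and Wdr63 a component of the ciliary inner dynein arm system. The sequences are RefSeq promoters on GRCm38.p6, running from 250 bases before to 50 bases after the annotated start, 5′ to 3′ on the gene's strand. Capitals mark the matches. Dmrta2 lies at chr4:109977775-109978074 on the plus strand and holds 2 matches. Kcne2 lies at chr16:92295366-92295665 on the plus strand, Stac at chr9:111690299-111690598 on the minus strand and Wdr63 at chr3:146107987-146108286 on the minus strand, each with 1 match.
Dmrta2: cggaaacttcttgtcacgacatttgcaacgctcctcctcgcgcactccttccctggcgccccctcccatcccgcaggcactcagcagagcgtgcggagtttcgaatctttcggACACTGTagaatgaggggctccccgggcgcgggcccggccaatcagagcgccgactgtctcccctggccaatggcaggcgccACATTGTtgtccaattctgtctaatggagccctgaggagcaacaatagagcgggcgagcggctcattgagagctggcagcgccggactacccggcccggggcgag
Kcne2: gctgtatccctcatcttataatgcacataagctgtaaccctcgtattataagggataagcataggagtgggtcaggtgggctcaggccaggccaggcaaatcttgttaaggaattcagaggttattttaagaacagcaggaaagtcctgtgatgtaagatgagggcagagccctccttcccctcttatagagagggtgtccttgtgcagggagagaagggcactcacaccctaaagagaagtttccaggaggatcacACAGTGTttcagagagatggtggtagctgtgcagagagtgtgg
Stac: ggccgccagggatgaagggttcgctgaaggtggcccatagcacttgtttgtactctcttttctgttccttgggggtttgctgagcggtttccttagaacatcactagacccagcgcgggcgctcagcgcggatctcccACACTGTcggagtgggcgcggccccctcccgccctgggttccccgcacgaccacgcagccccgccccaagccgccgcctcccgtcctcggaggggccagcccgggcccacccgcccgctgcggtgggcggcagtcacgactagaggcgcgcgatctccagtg
Wdr63: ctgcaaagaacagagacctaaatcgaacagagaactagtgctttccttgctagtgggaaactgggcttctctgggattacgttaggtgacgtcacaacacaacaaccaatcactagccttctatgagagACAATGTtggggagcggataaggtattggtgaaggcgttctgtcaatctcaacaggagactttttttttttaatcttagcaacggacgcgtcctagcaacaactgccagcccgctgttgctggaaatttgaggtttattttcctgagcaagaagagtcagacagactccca

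A promoter entry was matched by symbol for 56 of the 79 genes lower in Dmrt5 KO, and 6 of these, or 10.7%, held ACANTGT in at least 1 promoter. The remaining 2 were E330013P04Rik and Gm26725, both annotated as non-coding. Dmrta2, 1 of the 6, is targeted in Dmrt5 KO, so its place among the lower genes was fixed by the design. None of the 20 higher genes with an entry held it. Among all tested genes with an entry, 567 of 11490 held it, or 4.9%. By promoter, 6 of 75 from lower genes, 0 of 24 from higher genes and 599 of 14731 overall held the letters. Kcne2 has another promoter entry without them. A match describes these letters in this window and is not a binding site, and a window without one says nothing about the factor.

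The 9 libraries held 21201373 to 33072896 counts. Levels are normalised read counts (CPM), relative to the library total after scaling between libraries. In a principal component analysis of the 500 most variable genes, the first component (38% of the variance) mixed the genotypes. The second (24%) separated them, with Dmrt3 KO at 1 to 19.9 and Dmrt5 KO at -16.1 to -7.2. It also spread the libraries within each genotype. Dmrt3 KO replicates 1 and 2 were at 17.5 and 19.9, against 1 to 5.2 in replicates 3 to 5. Dmrt5 KO replicates 1 and 2 were at -9 and -7.2, against -16.1 and -15.6 in replicates 4 and 5. Xist and Y-linked transcripts marked 2 female and 3 male Dmrt3 KO libraries, and 1 female and 3 male Dmrt5 KO libraries. Dmrt5 KO replicate 1 stood apart from its group: Xist was at 26.5 CPM there, against 0.28 and 0.239 in the other male libraries of Dmrt5 KO, while Ddx3y on the Y chromosome was at 20.6 CPM. Whether that library, counted here as male, held RNA of more than 1 embryo was not tested, and results that turn on it are given without it. Dmrt3 KO replicate 5 and Dmrt5 KO replicate 4 had the highest mean log2 CPM over 18 mesenchyme genes, 6.12 and 5.55, against 3.69 to 4.8 in the other 7. Tbr1, a marker of early glutamatergic neurons of the cortex, averaged 216 CPM in Dmrt5 KO and 234 CPM in Dmrt3 KO. Nkx2-1, which marks the ventral medial ganglionic eminence, was read in all 9 libraries, at 15.7 to 186 CPM, so none was free of subpallial transcripts. In such bulk tissue, fewer cells of a type and less RNA per cell cannot be told apart.

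Each targeted transcript was low in the group labelled as its knockout, least so in Dmrt5 KO replicate 1. Dmrt3 (ENSMUSG00000042372, GRCm38 chromosome 19, 25610301 to 25623921) was at 45.4, 30.5, 48.6 and 41.4 CPM in Dmrt5 KO replicates 1, 2, 4 and 5, the order kept below. In Dmrt3 KO replicates 1 to 5 it was at 0.261, 0.396, 0.233, 0.342 and 0.305 CPM. The groups lay 133-fold apart (log2 difference 7.05 ± 0.20 SE, adjusted p = 3.28e-08), where a difference is always Dmrt5 KO minus Dmrt3 KO. Dmrta2 (ENSMUSG00000047143, chromosome 4, 109978053 to 109983687) was at 24.9, 4.33, 6.96 and 6.53 CPM in Dmrt5 KO and at 293, 155, 248, 204 and 195 CPM in Dmrt3 KO. It was 20.7-fold lower in Dmrt5 KO (log2 -4.38 ± 0.50, adjusted p = 0.00394), and log2 -5.20 without Dmrt5 KO replicate 1, whose residual level was the highest of its group. No other library of Dmrt5 KO exceeded 6.96 CPM.

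Of the other family members, Dmrt1, a regulator of gonad development and the neighbour of Dmrt3 on chromosome 19 (25505618 to 25604329), also differed. Its level was 2.41, 2.58, 2.88 and 2.5 CPM in Dmrt5 KO and 11.2, 12.4, 11.7, 10.2 and 9.5 CPM in Dmrt3 KO, without overlap. It was 4.24-fold higher in Dmrt3 KO (log2 -2.08 ± 0.14, adjusted p = 6.78e-05). The WT mean was 3.30 CPM and the double KO mean 3.08 CPM, so Dmrt3 KO alone held the high level among the 4 group means. Dmrta1 (log2 0.17, adjusted p = 0.837) and Dmrtb1 (0.48, adjusted p = 0.797) did not pass the test. Dmrt2 and Dmrtc1a were too low to be tested.

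Of 15650 tested genes, 26 were higher in Dmrt5 KO (0.166%) and 79 lower (0.505%) at an adjusted p under 0.05 in edgeR's quasi-likelihood test, together 0.671%. The lower genes moved further: 64 of the 79 and 8 of the 26 differed by more than 2-fold, and the median log2 difference was -1.41 among the lower and 0.84 among the higher genes. In all 105 the libraries of both groups did not overlap, which was true of 617 tested genes (3.94%), 323 higher (2.06%) and 294 lower (1.88%). At an unadjusted p under 0.05 there were 1360 genes, and the median over all genes was -0.0043. DESeq2 called 313 genes of 17562 (1.78%), 115 higher and 198 lower. The counts moved with single libraries. Leaving out Dmrt3 KO replicate 1 gave 14 higher and 42 lower genes, replicate 2 gave 55 and 81, replicate 3 gave 15 and 46, and replicate 4 gave 11 and 39. For Dmrt5 KO, leaving out replicate 1 gave 12 and 36, replicate 2 gave 11 and 31, and replicate 5 gave 9 and 33. One fit of all 18 libraries, with 1 mean per genotype and a spread shared by the 4 genotypes, called 10 of the 26 higher and 26 of the 79 lower genes. Each of the 105 kept its direction in every one of these fits that tested it, and 34 (8 higher, 26 lower) passed the test in all 9 fits that left out 1 library.

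**Figure D1:**
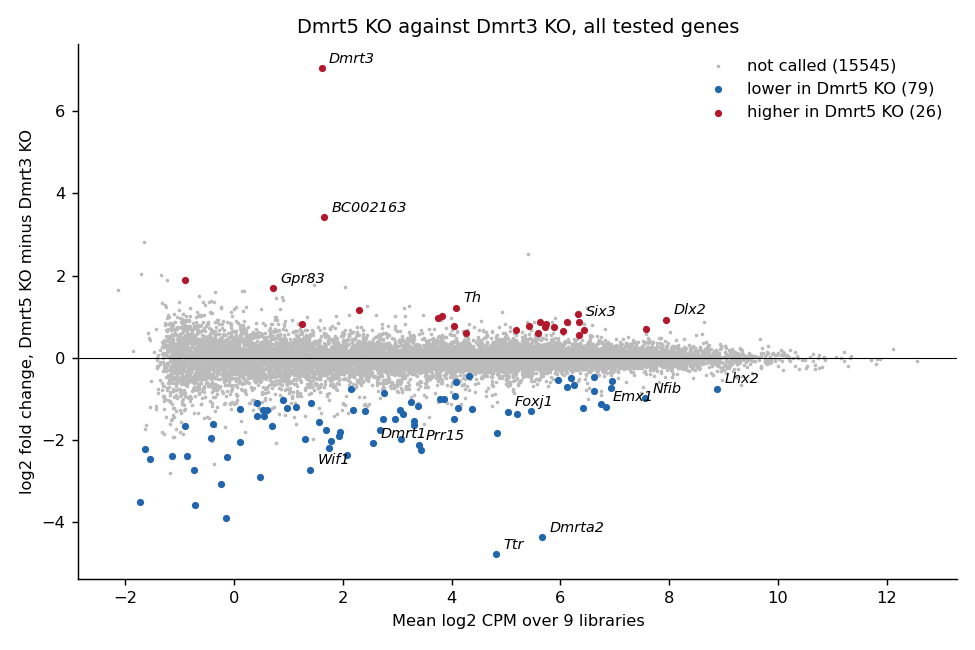
Log2 difference (Dmrt5 KO minus Dmrt3 KO, vertical) against mean log2 CPM over the 9 libraries (horizontal) for the 15650 tested genes, with the 26 higher genes in red and the 79 lower in blue. Most called genes lie below 0, and Dmrt3, Dmrta2 and Ttr lie furthest from it.

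Genes of the cortical hem lay lower in Dmrt5 KO, and 2 of 16 tested members passed: Lmx1a, a transcription factor that specifies hem and choroid plexus, and Rspo1, a secreted enhancer of Wnt signalling. For this and the lists below, the shares over all tested genes were 0.166% called higher and 0.505% called lower. Groups were separate for 2.06% on the higher and 1.88% on the lower side. Lmx1a was at 5.41, 4.95, 5.16 and 4.77 CPM in Dmrt5 KO and at 11.2, 12.1, 15.3, 14.5 and 12.3 CPM in Dmrt3 KO. It was 2.58-fold lower in Dmrt5 KO (log2 -1.37 ± 0.13, adjusted p = 0.00104), against a WT mean of 18.8 CPM. Rspo1 was at 32.6, 26.5, 30.2 and 18.7 CPM in Dmrt5 KO and at 76.7, 54.5, 74.4, 54.2 and 74.7 CPM in Dmrt3 KO (log2 -1.31 ± 0.18, adjusted p = 0.00937). Neither gene's groups overlapped. In the list, 15 of 16 members lay below 0 with a median of -0.88. The summed level of the list was 428.7 to 644.5 CPM in Dmrt5 KO and 610.6 to 808 CPM in Dmrt3 KO. The groups overlapped on it through Dmrt5 KO replicate 4, at 644.5 CPM, the library of highest mesenchyme level in its group. Gdf7 was too low to be tested.

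The Wnt ligands of the hem did not pass. Wnt3a, the ligand that defines the hem, was at 4.18, 1.96, 5.48 and 3.07 CPM in Dmrt5 KO and at 7.75, 6.64, 9.24, 8.65 and 8.02 CPM in Dmrt3 KO. The groups did not overlap, but the test gave log2 -1.14 ± 0.26 with an adjusted p of 0.0992. Wnt3a passed in DESeq2 (adjusted p = 0.000933) and without Dmrt5 KO replicate 4 (0.0385). Wnt2b, a further hem ligand, had log2 -1.63 (adjusted p = 0.0766) and passed in DESeq2 (0.000359) and without Dmrt3 KO replicate 2 (0.0488) or Dmrt5 KO replicate 4 (0.0393). Wnt8b, a ligand of the medial pallium, was at 33, 24.7, 50.9 and 40.9 CPM against 36.1, 27.9, 58.6, 46 and 43.6, so its groups overlapped (log2 -0.18, adjusted p = 0.887). None of 16 genes of Bmp signalling passed in edgeR, while 7 had an unadjusted p under 0.05 and 1 passed in DESeq2. Their median was -0.58, and 14 lay below 0. Id3, an inhibitor of bHLH factors that responds to Bmp, had log2 -0.74 (adjusted p = 0.132) and passed in DESeq2 (0.0111).

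Mesenchyme and meninges also secrete Bmps. All 18 of their 18 markers lay below 0, with a median of -0.52, which was -0.0386 without Dmrt3 KO replicate 5, -0.314 without Dmrt5 KO replicate 2 and -1.07 without Dmrt5 KO replicate 4. None was called in edgeR or DESeq2, and 1 had an unadjusted p under 0.05. Their summed level was 658 to 1993 CPM in Dmrt5 KO and 831 to 3204 CPM in Dmrt3 KO, overlapping widely. Col1a1, the main collagen of fibroblasts, was at 100, 57.8, 431 and 86.5 CPM against 231, 112, 230, 190 and 784 (log2 -0.87, adjusted p = 0.832), with log2 -0.18 without Dmrt3 KO replicate 5 and -1.925 without Dmrt5 KO replicate 4. Dcn, the matrix proteoglycan decorin, had -0.66 (adjusted p = 0.327). With the mesenchyme level as a covariate, 23 of the 26 higher and 73 of the 79 lower genes were still called, and with both libraries of highest mesenchyme level left out, a setting chosen after seeing the data, 14 and 58. The named genes that lost their call in either are given with their lists below. With the covariate, Lmx1a (log2 -1.375, adjusted p = 0.00189) and Rspo1 (-1.20, adjusted p = 0.0115) still passed. With both libraries left out, they stood at -1.40 (adjusted p = 0.00737) and -1.33 (0.0291). In the fit of all 18 libraries Rspo1 did not pass (adjusted p = 0.365).

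Choroid plexus transcripts showed the widest gap. Ttr, which encodes the transport protein transthyretin and marks this epithelium, was at 5.36, 0.915, 5.52 and 10 CPM in Dmrt5 KO and at 206, 313, 94.3, 98.2 and 62.3 CPM in Dmrt3 KO. It was 27.9-fold lower in Dmrt5 KO (log2 -4.80 ± 0.67, adjusted p = 0.0102), and the Dmrt3 KO mean of 155 CPM stood beside a WT mean of 152 CPM. Clic6, a chloride channel-like protein, was at 3.25, 1.96, 7.87 and 5.99 CPM against 23.8, 25.7, 23.4, 26.4 and 15.8 (log2 -2.26 ± 0.35, adjusted p = 0.0161). Kcne2, whose promoter is printed above, was at 0.0983, 0.333, 0.0799 and 0.268 CPM against 3.39, 6.38, 1.36, 3.59 and 0.741 (log2 -3.91 ± 0.69, adjusted p = 0.031). These were the 3 called genes among 8 tested markers; 7 of 8 lay below 0 with a median of -1.53, and Otx2, which also acts elsewhere in the forebrain, was the exception at 0.15. Calml4, a calmodulin-like protein, had -1.70 (adjusted p = 0.0766) and passed in DESeq2 (0.00142). Kl, Kcnj13, Cldn2, Slc4a5 and Prlr were too low to be tested.

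Within Dmrt3 KO the choroid plexus level itself varied, from 180 to 427 CPM summed over the 8 markers, and in Dmrt5 KO from 76.9 to 102 CPM. Htr2c, a serotonin receptor of choroid plexus that is not on the list and was chosen after its values were seen, was at 0.0983, 0.125, 0.2 and 0.477 CPM against 2.57, 2.46, 2.33, 1.88 and 1.18 (log2 -3.08 ± 0.42, adjusted p = 0.00916). Clic6 did not pass without Dmrt3 KO replicate 1 or 4 or Dmrt5 KO replicate 1 or 5 (adjusted p 0.0501 to 0.0659). Kcne2 did not pass without Dmrt3 KO replicate 1 or 4 or any single Dmrt5 KO library (adjusted p 0.074 to 0.118), whereas Ttr and Htr2c passed in all 9 such fits. In the fit of all 18 libraries Clic6, Kcne2 and Htr2c missed the threshold (adjusted p 0.061, 0.0561 and 0.132).

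**Figure D2:**
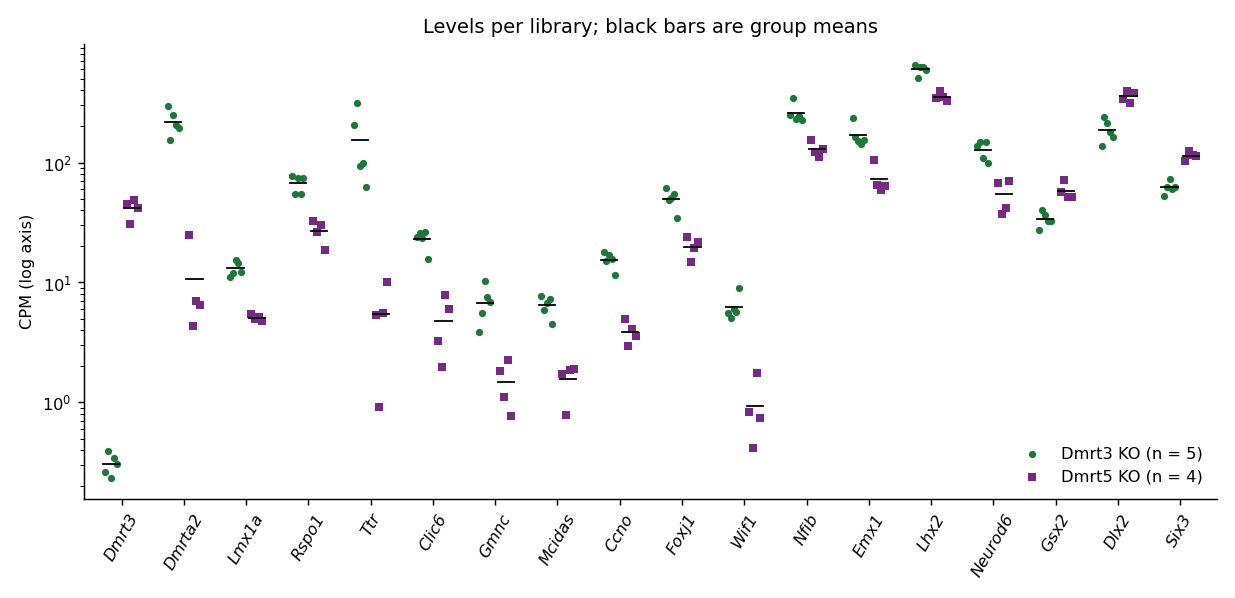
CPM on a log axis for 18 genes in each Dmrt3 KO library (green circles, n = 5) and each Dmrt5 KO library (purple squares, n = 4), with group means as bars. Ttr spans 62.3 to 313 CPM in Dmrt3 KO and 0.915 to 10 CPM in Dmrt5 KO, and the regulators of multiciliation sit lower in every Dmrt5 KO library.

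Cells that carry many motile cilia, such as those of the choroid plexus and later the ependyma, are specified by Gmnc, Mcidas, Ccno and Foxj1. These 4 were lower in Dmrt5 KO and were the called genes among 12 markers tested. Ccno, a cyclin-like protein needed for centriole amplification, was at 4.97, 2.95, 4.12 and 3.55 CPM against 18.1, 15.1, 16.8, 15.8 and 11.6 in Dmrt3 KO (log2 -1.995 ± 0.18, adjusted p = 0.000806). Mcidas, which acts upstream and lies next to Ccno on chromosome 13, was at 1.72, 0.79, 1.88 and 1.91 CPM against 7.66, 5.94, 6.8, 7.28 and 4.49 (log2 -2.02 ± 0.27, adjusted p = 0.00831). Gmnc, the earliest of the regulators, was at 1.82, 1.12, 2.24 and 0.775 CPM against 3.83, 5.54, 10.2, 7.52 and 6.93 (log2 -2.21 ± 0.36, adjusted p = 0.0223). Foxj1, which drives the motile cilium program, was at 24, 14.7, 19.2 and 21.7 CPM against 61.1, 48.7, 50.6, 54.4 and 34.3 (log2 -1.32 ± 0.18, adjusted p = 0.0097). No Dmrt5 KO library reached the lowest Dmrt3 KO library for any of them. Gmnc did not pass without Dmrt3 KO replicate 4 or Dmrt5 KO replicate 1, 2 or 5 (adjusted p 0.0569 to 0.105), nor with all 18 libraries (0.155).

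Structural genes of motile cilia were mixed within the list: Dnah5 (log2 0.53), Dnah9 (-0.33), Tekt1 (-0.53) and Ccdc39 (0.07) did not pass, and the list median was -0.39 (-0.238 without Dmrt3 KO replicate 2). Outside it, 8 of the called lower genes encode axonemal or ciliary proteins, a group picked after the values were seen. They are Wdr63, Dnah6, Cfap52, Ccdc113, Ccdc146, Dynlrb2, Rsph4a and Pifo, with log2 differences of -3.53 to -1.96. Dynlrb2, a dynein light chain, was at 0.541, 0.333, 0.6 and 0.358 CPM against 4.57, 6.95, 1.98, 2.36 and 1.48 (log2 -2.92 ± 0.50, adjusted p = 0.0278). Wdr63, whose promoter is printed above, was at 0, 0, 0.0799 and 0.0894 CPM against 0.74, 0.924, 0.583, 0.444 and 0.349 (log2 -3.53 ± 0.60, adjusted p = 0.0275), a level of 0 to 3 counts in Dmrt5 KO and 8 to 21 in Dmrt3 KO. Each of the 8 failed the test without Dmrt5 KO replicate 1 and without replicate 5, and all but Cfap52 without further libraries too. With both libraries of highest mesenchyme level left out, Dnah6 and Pifo did not pass (adjusted p 0.0666 and 0.0527). With all 18 libraries, Cfap52 and Dynlrb2 passed and the other 6 did not (adjusted p 0.061 to 0.158).

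Genes induced by Wnt signalling as its own feedback gave 4 called lower of 14 tested, with a median of -0.48 and 13 of 14 below 0. Wif1, a secreted Wnt inhibitor, was at 0.836, 0.416, 1.76 and 0.745 CPM in Dmrt5 KO and at 5.57, 5.1, 5.98, 5.68 and 8.98 CPM in Dmrt3 KO (log2 -2.73 ± 0.36, adjusted p = 0.00819). Sp5, a transcription factor, was at 5.56, 3.04, 7 and 6.77 CPM against 17.2, 18.1, 22.5, 12.9 and 11 (log2 -1.55 ± 0.27, adjusted p = 0.031). Both separated the groups. Rnf43, a ligase that removes Wnt receptors, had log2 -1.03 (adjusted p = 0.031), and Tnfrsf19, a receptor, -0.83 (adjusted p = 0.0161). The widely used readouts Axin2 (-0.57, adjusted p = 0.29) and Lef1 (-0.57, adjusted p = 0.228) did not pass. Wif1 passed in all 9 fits without 1 library. Tnfrsf19 failed without Dmrt3 KO replicate 3 or Dmrt5 KO replicate 1, 2 or 5 (adjusted p 0.0511 to 0.0811), Sp5 in 7 fits, all but those without Dmrt3 KO replicate 5 or Dmrt5 KO replicate 4 (0.0532 to 0.112), and Rnf43 in 8, all but that without Dmrt3 KO replicate 2 (0.0575 to 0.153). Rnf43 also failed with the mesenchyme covariate (0.0551) and with both libraries of highest mesenchyme level left out (0.0914). None of the 4 passed in edgeR with all 18 libraries (adjusted p 0.124 to 0.822).

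Of the 4 nuclear factor I genes, which act in hippocampal and glial development, 3 were lower in Dmrt5 KO, and Nfic (log2 -0.28, adjusted p = 0.786) did not pass. Nfix was at 79.6, 51.3, 72.9 and 76.5 CPM in Dmrt5 KO and at 175, 149, 138, 169 and 140 CPM in Dmrt3 KO (log2 -1.14 ± 0.14, adjusted p = 0.00506). Nfib was at 155, 122, 112 and 129 CPM against 250, 342, 231, 245 and 224 (log2 -0.999 ± 0.14, adjusted p = 0.0114). Nfia was at 111, 87.1, 83.6 and 88.7 CPM against 146, 204, 138, 148 and 142 (log2 -0.75 ± 0.13, adjusted p = 0.032). Dmrt3 KO replicate 2 was the highest library for Nfib and Nfia, and the groups of these 3 did not overlap. With Wif1 they were the 4 called of 11 tested genes of medial pallium and hippocampus, whose median was -0.57. Prox1 (0.68, adjusted p = 0.53) and Zbtb20 (0.28, adjusted p = 0.656), markers of later hippocampal fields, did not pass. Nfix passed in all 9 fits without 1 library, Nfib in all but those without Dmrt5 KO replicate 2 or 5 (adjusted p 0.0506 and 0.0605), and Nfia not without Dmrt3 KO replicate 1, 3 or 4 or Dmrt5 KO replicate 2, 4 or 5 (0.0549 to 0.148). With both libraries of highest mesenchyme level left out, Nfia did not pass (0.0942). With all 18 libraries the adjusted p was 0.0806 for Nfix, 0.155 for Nfib and 0.226 for Nfia.

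Among regulators of pallial progenitors, 3 of 14 were called, all lower in Dmrt5 KO. Lhx2, a LIM homeodomain selector of cortical identity, was at 347, 391, 351 and 328 CPM in Dmrt5 KO and at 654, 511, 620, 626 and 595 CPM in Dmrt3 KO (log2 -0.76 ± 0.09, adjusted p = 0.00551). Emx1, a homeodomain factor of the dorsal pallium, was at 105, 65.4, 59.4 and 63.9 CPM against 234, 163, 150, 142 and 153 (log2 -1.20 ± 0.20, adjusted p = 0.0258). Its highest libraries were Dmrt5 KO replicate 1 and Dmrt3 KO replicate 1, each well above its own group, and the groups did not overlap. Fezf2, a factor for deep-layer projection neurons, had log2 -0.66 ± 0.12 (adjusted p = 0.031). Emx2, the paralog of Emx1, was at 132, 112, 120 and 109 CPM against 172, 138, 192, 195 and 202, separated but short of the threshold (log2 -0.60 ± 0.12, adjusted p = 0.0532). Emx2 passed in DESeq2 (adjusted p = 0.00056) and without Dmrt3 KO replicate 2 (0.0124). Emx2os, its antisense partner, was called at -0.59, but in 1 of the 9 fits without 1 library only (adjusted p 0.0736 to 0.192 in the others). Because the library kit does not mark strand, reads from sequence where the pair overlaps cannot be told apart.

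Other regulators of the pallium were closer between the groups. Pax6, high in lateral progenitors, was at 216, 270, 279 and 284 CPM in Dmrt5 KO and at 194, 191, 212, 244 and 192 CPM in Dmrt3 KO (log2 0.34, adjusted p = 0.292). Gli3, a hedgehog pathway repressor of ventral fate, had -0.14 (adjusted p = 0.841), the proneural gene Neurog2 -0.48 (adjusted p = 0.162), and Nr2f1, a gene of caudal cortex, 0.07 (adjusted p = 0.945). Of these, Neurog2 passed in DESeq2 (adjusted p = 0.0333). Lhx2 passed in all 9 fits without 1 library. Emx1 failed without Dmrt3 KO replicate 1 or 3 or Dmrt5 KO replicate 2, 4 or 5 (adjusted p 0.0511 to 0.123), and Fezf2 without those or Dmrt3 KO replicate 4 (0.0753 to 0.167). Neither passed with both libraries of highest mesenchyme level left out (Emx1 0.076, Fezf2 0.0832). Emx1 had an adjusted p of 0.061 with all 18 libraries.

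In the glutamatergic lineage 3 of 16 genes were lower in Dmrt5 KO: Neurod6, Nhlh1 and again Fezf2, with a list median of -0.26. Neurod6, a bHLH factor of young pyramidal neurons, was at 68, 37.5, 41.7 and 70.3 CPM in Dmrt5 KO and at 138, 147, 110, 148 and 98.1 CPM in Dmrt3 KO (log2 -1.24 ± 0.21, adjusted p = 0.0278). Nhlh1, a bHLH factor of newborn neurons, had log2 -0.54 (adjusted p = 0.0433). Neurod2 (-1.01, adjusted p = 0.0613) and Slc17a7, a vesicular glutamate transporter (-0.84, adjusted p = 0.0626), did not pass. Eomes, which marks intermediate progenitors, was at 160, 138, 179 and 178 CPM against 207, 202, 228, 273 and 175, overlapping at its edge (log2 -0.41, adjusted p = 0.313). Neurod4 lay on the other side, at 12.49, 12.1, 14.2 and 14 CPM against 3.66, 7.57, 7.3, 7.66 and 6.5 (log2 1.01, adjusted p = 0.0512), without overlap. It passed in DESeq2, and in edgeR without Dmrt3 KO replicate 1 (adjusted p = 0.019). The calls of Neurod6 and Nhlh1 were both lost without Dmrt3 KO replicate 1, 3 or 4 or Dmrt5 KO replicate 1, 2 or 4 (adjusted p 0.0519 to 0.184), and that of Nhlh1 also without Dmrt5 KO replicate 5. Nhlh1 also failed with the mesenchyme covariate (0.0678) and with both libraries of highest mesenchyme level left out (0.0866). Neither passed with all 18 libraries (adjusted p 0.856 and 0.213).

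The higher genes were led by the subpallium. Of 22 tested genes of the lateral ganglionic eminence and GABAergic lineage, 6 were higher in Dmrt5 KO and none lower, with a median of 0.76. Groups did not overlap for 12 of the 22, each higher in Dmrt5 KO. Over all tested genes, 0.166% were called higher and 2.06% were higher without overlap. Dlx2, a homeodomain factor of GABAergic progenitors, was at 337, 393, 312 and 379 CPM in Dmrt5 KO and at 137, 240, 215, 181 and 162 CPM in Dmrt3 KO (log2 0.92 ± 0.15, adjusted p = 0.0258). Six3, a homeodomain factor of the ventral and rostral forebrain, was at 102, 125, 115 and 113 CPM against 52.7, 62.8, 72.4, 60.7 and 62.6 (log2 0.87 ± 0.10, adjusted p = 0.00394). Its antisense neighbour Six3os1 was called too, but in 1 of the 9 fits without 1 library only (adjusted p 0.0511 to 0.176 in the others). Reads from any sequence where this pair overlaps cannot be told apart. Six3 was also the called gene among 9 of the septum and Zic family, of which 5 had an unadjusted p under 0.05. All 9 lay above 0 with a median of 0.42, and Zic1, a zinc finger factor of the septum and meninges, had 0.46 (adjusted p = 0.313).

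Gsx2, which sets lateral ganglionic eminence identity, was at 56.5, 72.1, 51.2 and 52 CPM in Dmrt5 KO and at 27.3, 40.4, 36.6, 32.4 and 32.8 CPM in Dmrt3 KO (log2 0.77 ± 0.14, adjusted p = 0.0303). Isl1, a factor of striatal precursors, had log2 0.86 (adjusted p = 0.0361), and Slc32a1, the vesicular GABA transporter, 0.82 (adjusted p = 0.0484). Gm14204, a transcript beside Slc32a1 on chromosome 2, had 0.88 (adjusted p = 0.048). It passed in 2 of the 9 fits without 1 library, those without Dmrt3 KO replicate 2 or Dmrt5 KO replicate 4 (adjusted p 0.0589 to 0.182 in the others), and failed with RLE scaling (0.0543) and all 18 libraries (0.164). Dlx1 (0.86, adjusted p = 0.0823) and Gad1, a GABA-synthesising enzyme (0.87, adjusted p = 0.0824), lay as high without passing. Six3 passed in all 9 fits without 1 library. The list count was 14 without Dmrt3 KO replicate 2, 4 without replicate 1, 3 without replicate 3 or 5, 2 without replicate 4 or Dmrt5 KO replicate 1, 2 or 5, and 5 without Dmrt5 KO replicate 4. In these fits Dlx2, Gsx2, Isl1 and Slc32a1 had adjusted p of up to 0.102, 0.0979, 0.142 and 0.188. With both libraries of highest mesenchyme level left out, Dlx2, Gsx2 and Isl1 did not pass (0.0581, 0.072 and 0.0859), nor did Isl1 with the mesenchyme covariate (0.0652). With all 18 libraries Gsx2, Isl1 and Slc32a1 did not pass (0.222, 0.0839 and 0.201).

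Genes of the medial ganglionic eminence lay higher on average without a call in edgeR: 8 of 8 were above 0, with a median of 0.88. At an unadjusted p under 0.05 there were 6, DESeq2 called 1, and edgeR called 3 without Dmrt3 KO replicate 2. Nkx2-1 was at 186, 166, 126 and 183 CPM in Dmrt5 KO and at 52.7, 156, 49.3, 15.7 and 81.6 CPM in Dmrt3 KO (log2 1.22 ± 0.48, adjusted p = 0.467). Lhx8, a factor of cholinergic precursors, was at 58.2, 48.2, 41.1 and 59 CPM against 18.2, 52, 15.7, 8.24 and 25 (log2 1.12, adjusted p = 0.412). Dmrt3 KO replicate 2 reached the Dmrt5 KO range for both, and without it Lhx8 stood at log2 1.63 (adjusted p = 0.0319). The proportion of ventral tissue in each dissection was not tested.

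**Figure D3:**
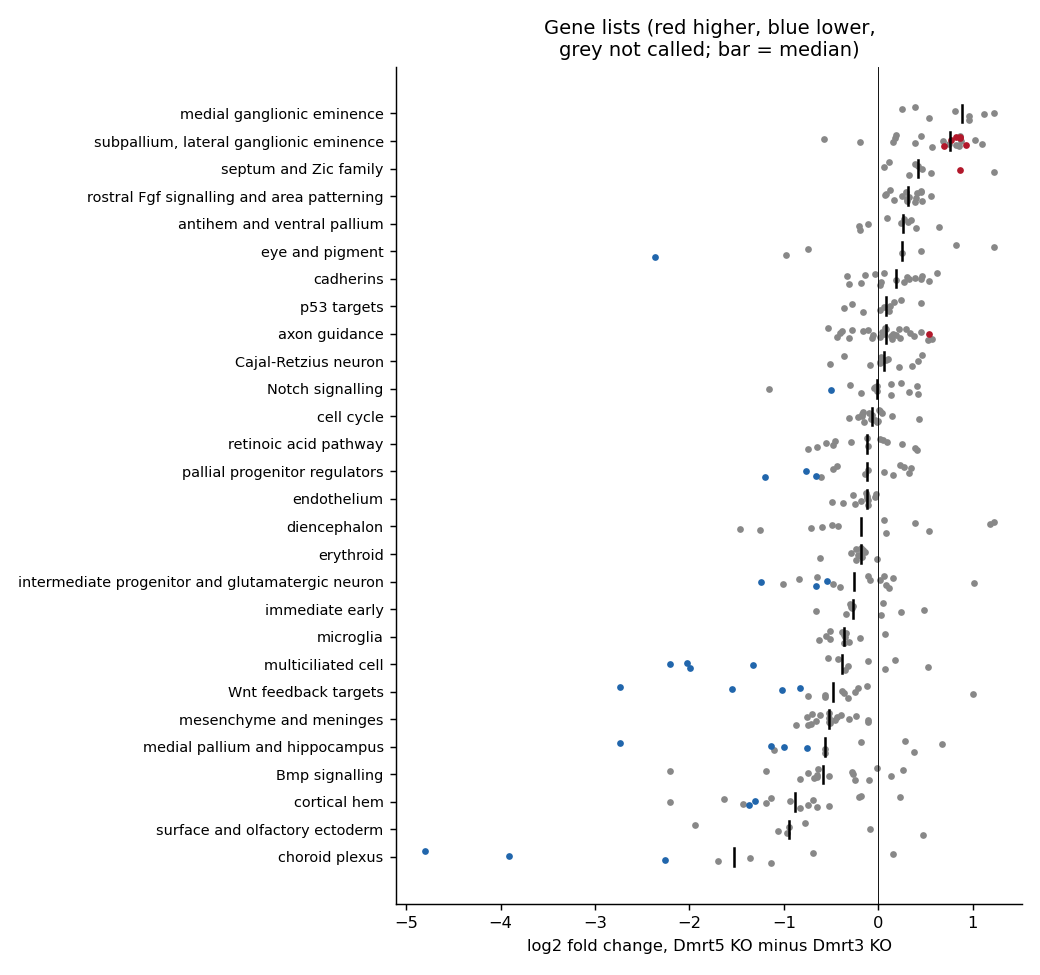
Log2 difference (Dmrt5 KO minus Dmrt3 KO) of each tested member of the gene lists, with called higher members in red, called lower members in blue, uncalled members in grey and the list median as a bar. The choroid plexus list has the lowest median, -1.53, and the medial ganglionic eminence list the highest, 0.88.

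Called genes outside the patterning lists came next. Prr15, a small proline-rich protein, was at 5.46, 3.95, 4.44 and 4.53 CPM in Dmrt5 KO and at 22.1, 19, 19.2, 20.3 and 20.1 CPM in Dmrt3 KO (log2 -2.13 ± 0.12, adjusted p = 2.65e-05). The spread within each group was small beside the 4.39-fold gap, and the Dmrt3 KO mean of 20.1 CPM exceeded the WT mean of 13.9 CPM. Dct, a melanin-synthesis enzyme also made by telencephalic progenitors, was at 2.26, 1.71, 1.48 and 1.31 CPM against 8.88, 10.3, 7.73, 6.5 and 9.94 (log2 -2.37 ± 0.21, adjusted p = 0.000733). It was the called gene among 7 tested eye and pigment markers, of which Vax1, a factor of ventral eye and forebrain, had 0.825 (adjusted p = 0.127). Vax1 passed in DESeq2, and in edgeR without Dmrt5 KO replicate 1 but in no other fit without 1 library. The pigment genes Tyr, Tyrp1 and Mlana were too low to be tested. Shisa8 (log2 -1.90, adjusted p = 0.00831), an AMPA receptor auxiliary protein, and Stac (-1.99, adjusted p = 0.0107) were lower as well. Hspb8, a small heat shock protein, Tacr3, the neurokinin B receptor, and Fam184b, chosen after their values were seen, had log2 -1.64, -1.67 and -1.81. All of these but Stac passed in every fit without 1 library; Stac gave an adjusted p of 0.0506 without Dmrt5 KO replicate 5, and Hspb8 one of 0.123 with all 18 libraries.

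On the higher side, Th, tyrosine hydroxylase of catecholamine synthesis, was at 27.7, 35.8, 21.7 and 23.8 CPM in Dmrt5 KO and at 10.4, 15.4, 11.6, 9.09 and 12.3 CPM in Dmrt3 KO (log2 1.21 ± 0.18, adjusted p = 0.013). Grik3, a kainate receptor subunit, was at 111, 104, 117 and 155 CPM against 53.5, 71.1, 65.1, 62 and 42.1 (log2 1.05 ± 0.16, adjusted p = 0.0161). Slc7a11, the cystine transporter, was at 16.5, 26.9, 18.3 and 22 CPM against 10.7, 9.55, 10.5, 10.5 and 10.4 (log2 1.02 ± 0.14, adjusted p = 0.00981). Groups of all 3 were separate. Col25a1, a transmembrane collagen, and Slc10a4, a vesicular carrier-like protein, had log2 1.16 and 0.97. Lrrc9, a leucine-rich repeat protein, was at 2.95, 3.29, 3.36 and 3.01 CPM against 1.44, 1.72, 1.75, 2.05 and 1.96 (log2 0.82, adjusted p = 0.0484), and lost its call whichever library was left out (0.067 to 0.179). Gpr83, an orphan-type receptor chosen after its values were seen, was at 3.2, 3.33, 2.48 and 3.01 CPM against 0.653, 0.88, 0.893, 0.957 and 1.26 (log2 1.69 ± 0.20, adjusted p = 0.00523). BC002163, annotated as a processed pseudogene on chromosome 16 (42955631 to 42955949), was at 12.7, 13.1, 12.8 and 7.6 CPM against 1.17, 1.54, 0.932, 0.752 and 1 (log2 3.42 ± 0.24, adjusted p = 0.000102). Its reads may belong to a near-identical copy, so the value is uncertain. Th failed the test without Dmrt3 KO replicate 1 (adjusted p = 0.0547), Grik3 without that library or Dmrt5 KO replicate 5 (0.0506 to 0.0726), Col25a1 in all fits but those without Dmrt3 KO replicate 1, 2 or 3, and Slc10a4 in all but those without Dmrt3 KO replicate 2 or Dmrt5 KO replicate 4 (0.0516 to 0.118). With both libraries of highest mesenchyme level left out, Col25a1 and Lrrc9 did not pass (0.0765 and 0.124). With all 18 libraries Th, Grik3, Col25a1 and Lrrc9 did not pass (adjusted p 0.0715, 0.161, 0.107 and 0.493).

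Some lists gave 1 call or none in edgeR. Hey1, a Notch effector, was the call among 14 Notch genes (log2 -0.50, adjusted p = 0.0227), and Ntn1, the guidance cue netrin-1, among 28 axon guidance genes (0.54, adjusted p = 0.0409). Ntn1 lost its call whichever library was left out (adjusted p 0.0589 to 0.119), and Hey1 unless it was Dmrt3 KO replicate 1, 2 or 5 (0.0532 to 0.122). Ntn1 failed with the mesenchyme covariate (0.0817), and both failed with the libraries of highest mesenchyme level left out (Hey1 0.0884, Ntn1 0.105). With all 18 libraries Hey1 and Ntn1 had adjusted p of 0.0807 and 0.164. Ephb1, an ephrin receptor on the axon guidance list, had 0.37 (adjusted p = 0.0992) and passed in DESeq2 (0.0154). None of the 16 genes of rostral Fgf signalling and area patterning was called in edgeR or DESeq2, and 5 had an unadjusted p under 0.05. All 16 lay above 0, with a median of 0.32. Fgf15, a ligand of that territory, was at 85.8, 97.4, 66.9 and 74 CPM against 60, 72.6, 59.5, 40.7 and 73.6, with overlap (log2 0.40, adjusted p = 0.531). Sp8, which regulates Fgf8, had 0.45 (adjusted p = 0.511), and Pou3f1, a POU factor, 0.41 (adjusted p = 0.272). edgeR called no member among 12 Cajal-Retzius genes (median 0.05), 10 of the antihem (0.26), 17 of the cell cycle (-0.07), 14 of the retinoic acid pathway (-0.12), 17 cadherins (0.19), 12 of the diencephalon (-0.18) or 10 p53 targets (0.08). In the same order, 4, 4, 1, 1, 5, 0 and 1 members had an unadjusted p under 0.05, and DESeq2 called 1 Cajal-Retzius gene and 1 cadherin. The diencephalon median was 0.294 without Dmrt3 KO replicate 2, and without Dmrt3 KO replicate 5 the retinoic acid median was 0.0549 and the Cajal-Retzius median -0.0105. The p53 median was -0.011 without Dmrt5 KO replicate 2. Ebf2 (-0.51, adjusted p = 0.144) and Trp73 (-0.37, adjusted p = 0.23), factors of Cajal-Retzius neurons, did not pass in edgeR, nor did Mcm5 of the replicative helicase (-0.18, adjusted p = 0.596). Of these, Ebf2 passed in DESeq2 (adjusted p = 0.0111). Markers of other cells held no call in edgeR either: 12 endothelial genes (median -0.12), 12 microglial (-0.36), 12 erythroid (-0.18) and 7 of surface and olfactory ectoderm (-0.95). Of these 2, 2, 0 and 4 had an unadjusted p under 0.05, and DESeq2 called 2 of the ectoderm list. C1qb, a complement subunit made by microglia, had -0.63 (adjusted p = 0.351), and Cldn1, an epithelial claudin, -0.97 (adjusted p = 0.211). Cldn1 passed in DESeq2 (adjusted p = 0.0198). Among 10 immediate early genes (-0.27) neither tool made a call, and 3 had an unadjusted p under 0.05.

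Genes near the targeted loci were examined because Dmrt1 lies beside Dmrt3. Within 5 Mb of Dmrt3, 1 of 53 tested genes was called, or 1.89%, against 0.671% of all genes, and 5, or 9.43%, had separate groups, against 3.94%. Dmrt1 was the called gene, 0.10 Mb before the start of Dmrt3. Within 5 Mb of Dmrta2, 2 of 64 were called, or 3.12%, and 9, or 14.1%, had separate groups. Tceanc2, a gene for an elongation factor domain protein at 107134155 to 107179116 on chromosome 4, was at 15.4, 12.1, 11 and 12.52 CPM in Dmrt5 KO and at 29.7, 32, 29.9, 28.9 and 31.5 CPM in Dmrt3 KO (log2 -1.25 ± 0.11, adjusted p = 0.000733). The WT and double KO means were 28.6 and 12.7 CPM, so both groups with the Dmrt5-/- genotype were low. Of the uncalled genes with separate groups within 1 Mb of Dmrta2, Cdkn2c, Agbl4 and Faf1 were higher in Dmrt5 KO. The sequence of the lines around either locus was not analysed here.

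**Figure D4:**
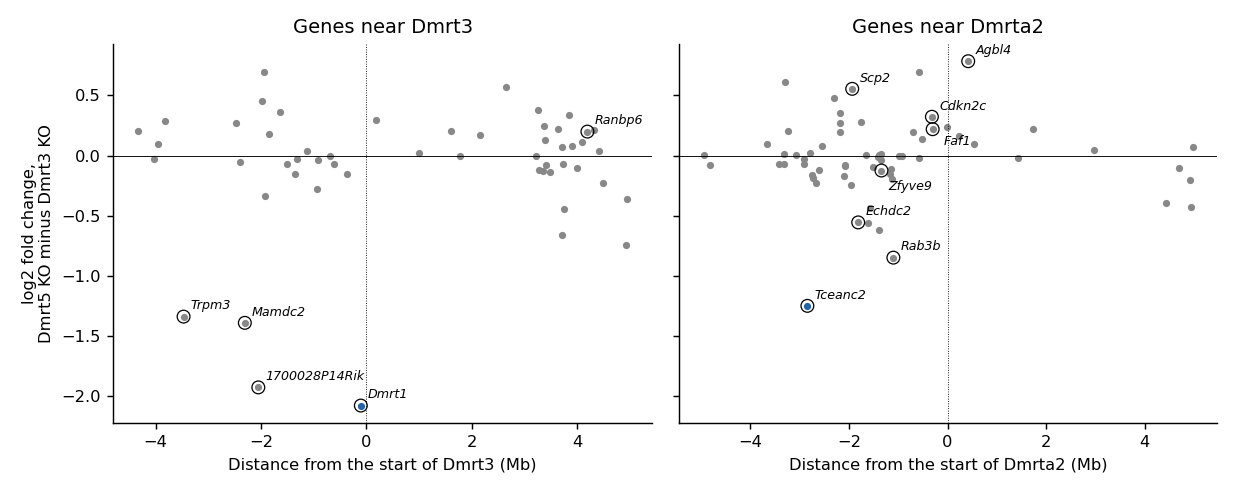
Log2 difference (Dmrt5 KO minus Dmrt3 KO) of tested genes within 5 Mb of Dmrt3 (left) and Dmrta2 (right) against distance from the start of the targeted gene in Mb, with called genes in blue and genes whose groups do not overlap ringed. Of the called genes, Dmrt1 and Tceanc2 are labelled, and both were lower in Dmrt5 KO.

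The 9 libraries not used in the comparison gave a second set of values for the called genes. Double KO minus WT shares no library with Dmrt5 KO minus Dmrt3 KO, but both set Dmrt5-/- libraries against libraries without that genotype. A gene that responds to Dmrt5 loss can take the same sign in both, so a shared sign is not an independent check. The median mesenchyme level, in mean log2 CPM, was 2.51 in double KO, 4.8 in WT, 3.94 in Dmrt5 KO and 4.79 in Dmrt3 KO. Double KO libraries ranged from 0.59 to 5.72. The part of mesenchyme in the shared signs was not tested. Of the 26 higher genes, 25 had the same sign in double KO minus WT, or 96.2%, and 22 were called there. The exception was Dmrt3, which is targeted in the double KO. Of the 73 lower genes tested in both, all had the same sign and 60 were called. The share of all genes called in that contrast was not computed, so the 22 and 60 have no background beside them. Over all genes tested in both, 10173 of 15371 had the same sign, or 66.2%. Dmrta2 is targeted in both contrasts and so had to fall in both. Neurod6 had a log2 difference of -5.64 in the double KO against -1.24 between the single KOs, and Emx1 -4.16 against -1.20. Dmrt1 was -0.11 in the double KO against -2.08 here.

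**Figure D5:**
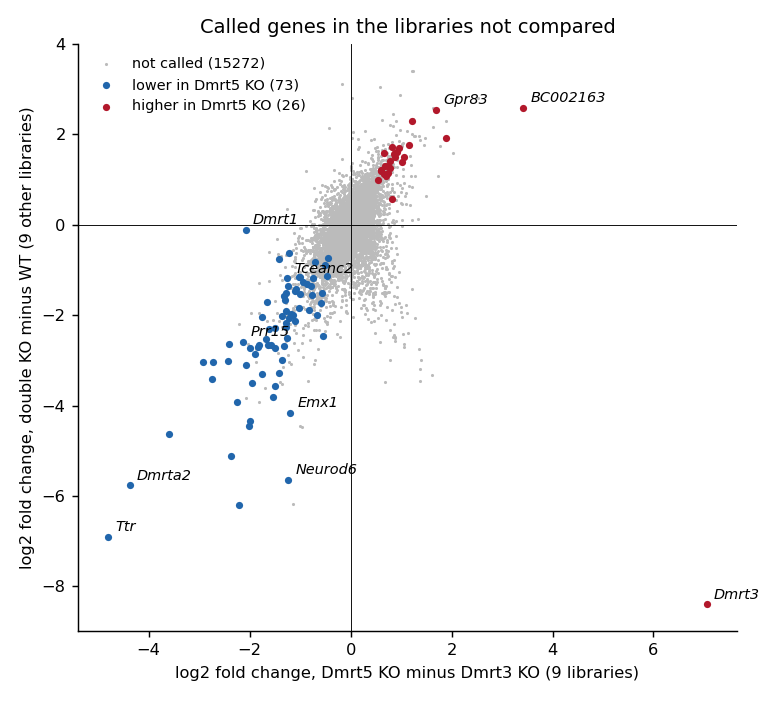
Log2 difference of double KO minus WT (vertical) against Dmrt5 KO minus Dmrt3 KO (horizontal) for genes tested in both, with the 26 higher genes in red, the 73 lower in blue and all others in grey. Called genes lie in the lower left and upper right apart from Dmrt3, and Dmrt1 lies near 0 on the vertical axis.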

How the data were processed

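RNA was measured in 18 libraries of mouse cortical tissue, and 9 were compared here. Per the labels' protocols, RNA came from RNeasy columns and libraries from the TruSeq RNA Sample Prep Kit v2, which does not mark strand. The authors deposited raw read counts per Ensembl gene, 38355 genes and 5 summary entries (all 0) per library. The build was mm10, and the tools named were featureCounts 1.4.6-p1, STAR 2.3.0e, DESeq2 1.8.2, CASAVA 1.8.2, bcl2fastq and FastQC 0.10.1, per the submitters' processing notes, with no role given. Which annotation release, strand setting and treatment of multiply mapping reads lay behind the counts was not given in the sources used here. Symbols and positions came from GENCODE M21 (GRCm38) for 36602 identifiers, and unmatched ones held 0.397% of counts.

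Counts were fitted with edgeR 4.0.16 in R 4.3.3 on the 9 libraries: filterByExpr (15650 genes), TMM scaling, and the quasi-likelihood F test, two-sided, with Benjamini-Hochberg adjustment over all tested genes and a threshold of 0.05. SE was derived from the fold change and F statistic. The biological coefficient of variation was 19.8%. Data were also simulated for this comparison, with 50 genes per fold and 15481 genes tested. Called were 30% of genes changed 1.5-fold, 76% at 2-fold and 100% at 3-fold and at 4-fold, with 15 unchanged genes. Changed genes were drawn only from those above a minimum mean CPM, so these rates do not cover genes at the lowest levels. Simulated counts were drawn independently for each library, so the rates do not cover deviations that libraries share. Total depth was 21201373 to 33072896 counts per library.

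Genes were named by a rule: 4 Dmrt genes, 15 patterning regulators, in each direction the 12 called genes that changed most, given separate groups (so separation is a condition of naming these) and an average log2 CPM no lower than 1, up to 4 members per list of lowest adjusted p, and called genes within 1 Mb of a targeted locus; not all are described. Some genes are not reported here and are left out of the plot of genes near the targeted loci. Members, the 30 lists and tests were chosen with earlier results of these data known. Lists share members, and a list is described by counts and medians without a test. Alternatives were DESeq2 1.42.0, RLE scaling, no filter, all 18 libraries, a replicate block, inferred sex, gene length slope, mesenchyme level, and leaving out each library.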

Additional observations from a re-analysis of the deposited data

Results flagged for a closer look

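For 90 of the genes given values, each genotype's highest and lowest library was set against the others with Dixon's criterion. Of 180 gene and genotype pairs, 16 (8.9%) held a library far from the rest. Chance gives about 1 in 20. Dmrt3 KO replicate 5 accounted for 5, Dmrt3 KO replicate 2 for 3, and Dmrt3 KO replicate 1, Dmrt5 KO replicate 1 and Dmrt5 KO replicate 5 for 2 each. The reasons were not tested.

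In Dmrt5 KO replicate 1, Dmrta2 was at 24.9 CPM against 4.33 to 6.96 in its group, and Emx1 at 105 against 59.4 to 65.4. Mcidas was at 0.79 CPM in Dmrt5 KO replicate 2 against 1.72 to 1.91. Col1a1 was at 431 CPM in Dmrt5 KO replicate 4 against 57.8 to 100.2. In Dmrt5 KO replicate 5, BC002163 was at 7.6 CPM against 12.7 to 13.1, and Ntn1 at 122 against 93.5 to 93.9.

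Emx1 was at 234 CPM in Dmrt3 KO replicate 1 against 142 to 163, and Etv1, an Fgf-responsive factor, at 9.05 against 12.7 to 13.3. In Dmrt3 KO replicate 2, Nfib was at 342 CPM against 224 to 250, Nfia at 204 against 138 to 148, and Slc7a11 at 9.55 against 10.4 to 10.7. In Dmrt3 KO replicate 5, Col1a1 was at 784 CPM against 112 to 231, Wif1 at 8.98 against 5.1 to 5.98, Clic6 at 15.8 against 23.4 to 26.4, Hspb8 at 21.7 against 14.3 to 16.2, and Smoc1, a matricellular protein, at 33.2 against 28.2 to 29.1.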

How the results depend on the processing

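Against 26 higher and 79 lower genes, the counts were 115 and 198 with DESeq2, 10 and 27 with all 18 libraries in the fit, and 49 and 111 with the gene length slope as a covariate. Leaving out 1 library gave 9 to 55 higher and 31 to 84 lower, and leaving out both libraries of highest mesenchyme level, added after seeing the data, 17 and 83. RLE scaling, no filter, inferred sex and the mesenchyme covariate kept both counts within 1.5 times. None of the 105 genes changed sign in an alternative that tested it, and DESeq2 called all 105. With the replicate block there were 11 higher and 24 lower genes, on fewer libraries. Deviations of same-numbered libraries correlated at 0.308, 0.473, 0.259 and -0.355, so the numbers were not taken to pair the samples. Dmrt3 KO replicates 1 and 2 correlated with Dmrt5 KO replicates 1 and 2 at 0.148 to 0.473, and with replicates 4 and 5 at -0.605 to -0.155. For Dmrt3 KO replicates 3 and 4 these ranges were -0.47 to -0.199 and 0.156 to 0.506. Dmrt3 KO replicate 5 stood at -0.355 to 0.51. What such libraries shared was not tested, and the main fit had no term for it. Lhx2, Ttr, Mcidas, Foxj1, Gpr83, Slc7a11 and Smoc1 lost their call with the replicate block (adjusted p 0.0652 to 0.101) and in no other alternative. Rspo1 and Htr2c also lost theirs with that block. Over 1605 alternative values of the 90 genes, 1296 kept direction and side of the threshold, 276 lost the call, 29 gained it and 4 changed sign. All 4 were Nr2f1, at -0.005204 with the mesenchyme covariate, -0.08878 without Dmrt3 KO replicate 5, -0.01233 without Dmrt5 KO replicate 5 (-0.08878 to 0.1809 over the fits without 1 library) and -0.1346 with both libraries left out. List medians that changed sign in at least 1 alternative were those of eye and pigment (0.245, to -0.226 with both left out, -0.205 without Dmrt3 KO replicate 5 and -0.0572 without Dmrt5 KO replicate 4), diencephalon, retinoic acid, Cajal-Retzius, endothelium, Notch, p53 and sex-linked genes. Causes were not tested. Wdr63 rests on 0 to 3 counts per Dmrt5 KO library, which limits the precision of its fold.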

Other observations

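Further called genes, picked after their values were seen, are given as values. Aldoc, a glycolytic enzyme, was at 20.9, 12.9, 9.23 and 16.2 CPM in Dmrt5 KO and at 85, 66, 34.3, 42 and 37.1 CPM in Dmrt3 KO (log2 -1.84, adjusted p = 0.0287). Bhlhe22, a bHLH factor of cortical neurons, was at 9.1, 7.36, 8.39 and 12.9 CPM against 23.9, 33, 29.8, 31 and 15.9 (log2 -1.50, adjusted p = 0.0173). Smoc1 was at 47.2, 50.1, 47 and 44 CPM against 29, 29.1, 29.1, 28.2 and 33.2 (log2 0.66, adjusted p = 0.00592). Smoc1 passed in all 9 fits that left out 1 library. Aldoc failed without Dmrt3 KO replicate 1 or 4 or any Dmrt5 KO library (adjusted p 0.0509 to 0.136), and Bhlhe22 without Dmrt3 KO replicate 1, 3 or 4 or Dmrt5 KO replicate 1 or 2 (0.0511 to 0.0939).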
